A study of Sus scrofa with 18 samples.

Results

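Solute carriers are membrane proteins that move amino acids, sugars, metals, nucleotides and metabolic intermediates across the plasma membrane and the membranes of organelles, and their genes carry the symbols SLC and SLCO. The genes described here are those whose symbol on the array starts with SLC and a digit or with SLCO, apart from SLC10A1 and SLC25A20, which were left out. The rule found 121 genes of 6765 named genes, covered by 182 of 23935 probe sets. Where a gene had several, the probe set whose log2 ratio averaged highest over all arrays stood for it. Of the 121 genes, 80 had 1 probe set and 41 had several. A substrate class was assigned to each from what its protein is known to carry: 20 genes of the SLC25 family of mitochondrial carriers, 17 amino acid carriers, 15 carriers of glucose and other sugars, 13 metal carriers, 3 nucleoside carriers and 53 others in 7 smaller classes. SLC2A4RG, SLC9A3R1 and SLC9A3R2 meet the rule by name but encode regulatory proteins, not carriers.

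Liver was taken from pigs at 21 days of age, in a study of how neonatal formula feeding affects hepatic gene expression. Male and female piglets were suckled by the sow, or received a commercial infant formula made from cow's milk or from soy from day 2. Each of the 6 groups of sex and diet held 3 RNA pools, each run on 1 array, which gave 18 arrays. The sources used here do not state how many animals entered a pool or whether piglets of a group shared a litter. The p-values therefore reflect only the variation among these pools.

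In the liver, carriers on the sinusoidal membrane exchange glucose, amino acids, nucleosides and trace metals with the blood. Carriers of the SLC25 family in the inner mitochondrial membrane exchange ATP for ADP and aspartate for glutamate. They also export citrate for the synthesis of fatty acids and sterols, and import phosphate, iron and cofactors. A substrate often has several carriers, and some work only as a pair of a transporting and a membrane-targeting subunit.

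The value for a probe set on an array is an expression ratio on a linear scale, with array medians from 0.301 to 0.309. The spread differed by sex. The upper quartile ran from 0.515 to 0.608 on male and from 0.884 to 0.945 on female arrays. The lower quartile ran from 0.196 to 0.202 on male and from 0.177 to 0.184 on female arrays. A ratio compares arrays for a gene, and cannot be taken to order genes by level. Of the 121 genes, 38 had a mean below every array's median. Differences are log2 differences between group means, taken over both sexes with equal weight except where a sex is named, each with its standard error (SE). The words rose and fell are used where limma's moderated test, adjusted by the Benjamini-Hochberg method over all 23935 probe sets, gave a p below 0.05. The first principal component (60.3% of the variance) separated male from female arrays, and the control transcripts spiked in for array processing had a 7.68-fold higher signal on the male arrays. The 12 hepatocyte markers measured, of 14 listed, had summed ratios from 14.9 to 17.1 in female pools and from 8.01 to 10.5 in male pools, and 0 of them were at 0. Both formulas were set against the same sow-fed pools, so the comparisons with sow milk are not independent of each other. In whole liver, fewer cells of a type and less RNA per cell cannot be told apart.

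Soy formula gave 6 solute carrier genes past the threshold against sow milk. SLC25A5 (an ADP/ATP translocase), SLC25A1 (the mitochondrial citrate carrier), SLC7A9 (a cystine and dibasic amino acid carrier), SLC17A1 (a phosphate and organic anion carrier that also handles urate) and SLC6A8 (the creatine carrier) were higher. SLC25A48, a mitochondrial carrier linked to choline import, was lower. These 6 are 4.96% of the 121 genes, where 3.28% of all probe sets and 5.62% of the named genes, each represented by 1 probe set, passed the same test. The 5 that rose are 4.13% of the genes, against 1.52% of probe sets and 2.68% of named genes. The 1 that fell is 0.826%, against 1.75% of probe sets and 2.94% of named genes. The median of the absolute difference was 0.173 over the 121 genes, 0.158 over all named genes and 0.128 over all probe sets. The share of carriers called thus lay near that of named genes.

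Milk formula gave 1 gene past the threshold against sow milk, SLC25A5, again higher. That is 0.826% of the 121 genes, where 0.756% of all probe sets passed. Of the 6765 named genes, 60 rose and 41 fell. A further 14 of the 121 had an unadjusted p below 0.05 and missed the adjusted threshold. Soy and milk formula, compared directly, gave 0 of the 121, where 0.66% of probe sets passed, and 13 genes had an unadjusted limma p below 0.05. In that comparison 30 of the 6765 named genes were higher on soy formula and 56 were lower.

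**Figure D1:**
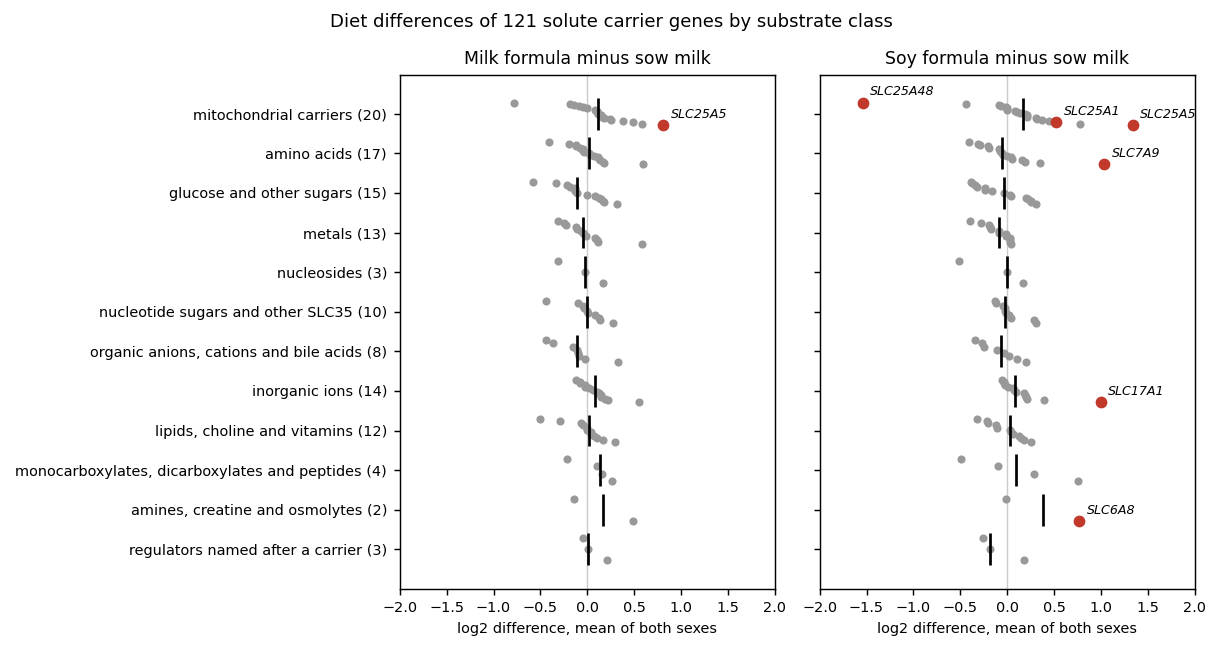
Log2 difference of each of the 121 genes (points, mean of both sexes) by substrate class, for milk formula (left) and soy formula (right) against sow milk; the number of genes in a class stands in brackets, black bars mark class medians and red points the genes with an adjusted p below 0.05. Most of the 121 genes lie near 0, and the 6 genes called on soy formula and the 1 called on milk formula are named.

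Among the 20 mitochondrial carriers, SLC25A5 and SLC25A1 rose and SLC25A48 fell on soy formula, and 17 were not called. The class median was 0.16 on soy formula and 0.11 on milk formula, against 0.003 and 0.02 over all named genes. SLC25A5 encodes an isoform of the translocase that exports ATP from the mitochondrial matrix in exchange for ADP. Its ratio in male pools was 0.315, 0.438 and 0.498 on sow milk, 0.854, 0.487 and 0.642 on milk formula and 1.53, 0.965 and 1.04 on soy formula. In female pools it was 1.12, 0.86 and 0.93 on sow milk, 1.73, 1.46 and 2.66 on milk formula and 1.93, 2.34 and 2.36 on soy formula. Every soy pool lay above every sow-fed pool of its sex, and so did every female milk formula pool, while male milk formula and sow-fed pools overlapped. The rise on soy formula was 2.53-fold (log2 1.34, SE 0.18, adjusted p = 0.000144), by 1.19 in females and 1.49 in males. The rise on milk formula was 1.75-fold (log2 0.81, SE 0.18, adjusted p = 0.0365), with 6 of 6 formula pools above the sow-fed mean of their sex. That milk formula call was lost in 18 of 31 alternatives, in 12 of them on leaving out a single pool, where adjusted p = 0.122 was the highest. The pools concerned were 1 and 2 of the sow-fed males, 1 and 3 of the milk formula males, 1 to 3 of the sow-fed females, 1 and 3 of the milk formula females and 1 to 3 of the soy formula females, with the value between 0.69 and 0.87. The soy formula females do not enter the milk formula difference. Without each of their pools it stayed at 0.811, with adjusted p from 0.0501 to 0.0511.

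The other ADP/ATP translocases measured, SLC25A4 and SLC25A6, stood at 0.31 (SE 0.14, adjusted p = 0.303) and 0.22 (SE 0.11, adjusted p = 0.418) on soy formula. In female pools tested alone, SLC25A4 rose by 0.46 (SE 0.10, adjusted p = 0.0239). These 3 proteins are close paralogs, and whether their probe sets share signal was not tested. SLC25A3, the carrier that brings in phosphate for ATP synthesis, has 2 probe sets that disagree. The one used here differed by -0.09 (SE 0.23, adjusted p = 0.919) and the other rose by 0.55 (SE 0.12, adjusted p = 0.0149) on soy formula. That other probe set was the only one called on soy formula among 61 further probe sets of the 121 genes, and 0 of the 61 were called in the other diet comparisons. By the choice of the highest mean, the further probe sets have lower ratios. Their mean log2 ratio had a median of -2.19, against -0.65 for the ones used in those genes.

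SLC25A48 moved the other way. In females its ratio was 2.68, 2.09 and 1.86 on sow milk, 1.11, 1.06 and 0.949 on milk formula and 0.736, 0.842 and 0.507 on soy formula. In males it was 1.05, 1.12 and 1.17 on sow milk, 1.14, 0.792 and 0.555 on milk formula and 0.775, 0.225 and 0.432 on soy formula. The sow-fed pools were above all soy pools in both sexes and above all milk formula pools in females, and female soy pools lay below female milk formula pools. On soy formula it fell to 0.344 of the sow-fed level (log2 -1.54, SE 0.23, adjusted p = 0.000654, 6 of 6 pools lower). On milk formula the difference was -0.78 (SE 0.23, adjusted p = 0.172) over both sexes. It passed the threshold in females alone (-1.07, adjusted p = 0.032), and over both sexes when the soy pools were left out of the fit (adjusted p = 0.0382), a fit in which SLC25A5 did not pass.

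SLC25A1 carries citrate out of the mitochondrion, and this citrate supplies acetyl groups for fatty acid and sterol synthesis. Male pools stood at 0.524, 0.474 and 0.494 on sow milk, 0.94, 0.646 and 0.671 on milk formula and 0.733, 0.551 and 0.807 on soy formula. Female pools were at 1.11, 1.28 and 1.06 on sow milk, 1.38, 1.23 and 1.31 on milk formula and 1.60, 1.84 and 1.69 on soy formula. Soy pools lay above the sow-fed pools of their sex without overlap, in males by little. The rise was 1.44-fold (log2 0.52, SE 0.12, adjusted p = 0.0196), with 6 of 6 pools higher, and the milk formula value was 0.38 (SE 0.12, adjusted p = 0.205). Without pool 1 or pool 3 of the sow-fed females or pool 2 of the soy formula females, the soy call was lost (adjusted p = 0.0528, 0.0629 and 0.0641).

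Of the 121 genes, SLC25A1, SLC25A5 and SLC25A48 were those whose soy and sow-fed pools did not overlap in either sex, in the same direction. They make up 2.48% of the 121, where 3.34% of all probe sets met this rule. The same rule was met by SLC39A14 for milk formula against sow milk (0.826% of the genes and 1.71% of probe sets) and by 0 genes for soy against milk formula, where 1.74% of probe sets met it.

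Among the 17 mitochondrial carriers not called on soy formula, SLC25A33, which carries pyrimidine nucleotides, had the largest difference at 0.77 (SE 0.23, adjusted p = 0.0846). Its second probe set gave -0.05. SLC25A39, needed for mitochondrial glutathione import, stood at 0.44 (SE 0.13, adjusted p = 0.063). SLC25A33 passed in 2 of 31 alternatives, without pool 2 of the sow-fed males or of the soy formula females. SLC25A39 passed in 5, without either of these pools or pool 2 of the soy formula males, with a pseudocount of 0.1 and with 1 probe set per named gene. The remaining 15 ran from -0.45 for SLC25A30 to 0.37 for SLC25A17, a peroxisomal member of the family.

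**Figure D2:**
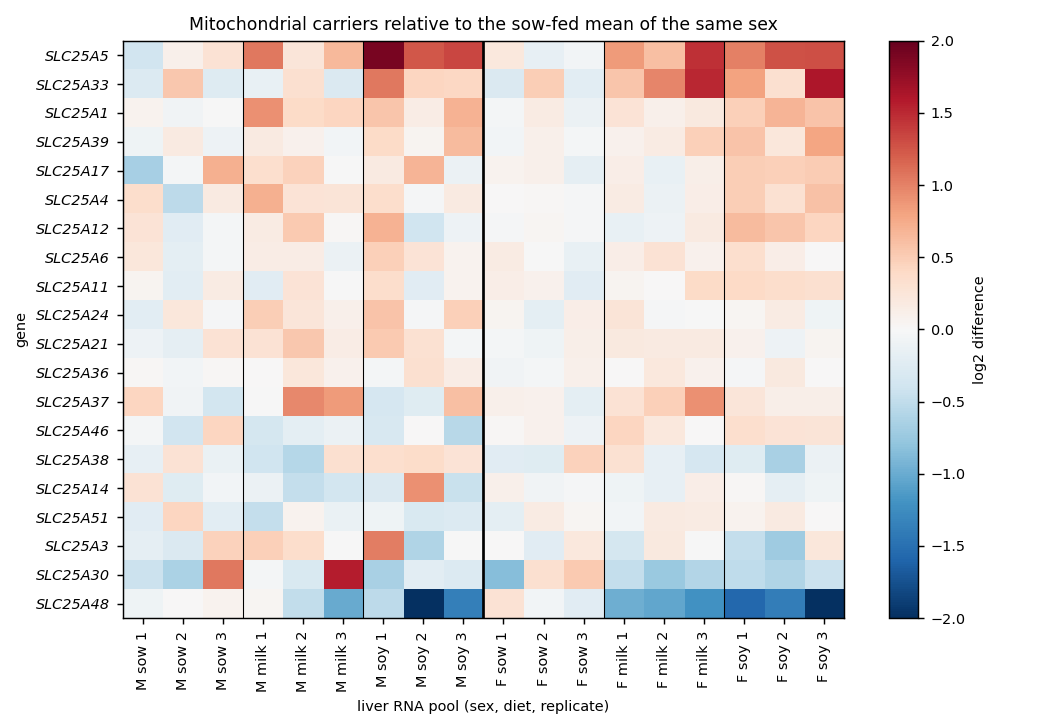
Log2 difference of each pool (columns; M male, F female, with diet and replicate number) from the mean of the sow-fed pools of its sex for the 20 mitochondrial carriers (rows, ordered by the soy formula difference); red is higher, blue is lower, and values beyond the ends of the colour scale take the end colour. The top row, SLC25A5, is red in all 6 soy pools and the bottom row, SLC25A48, is blue in all 6, while most other rows are pale.

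Of 17 amino acid carriers, 1 rose on soy formula and 0 fell, and 0 were called on milk formula. The class medians were -0.06 on soy and 0.02 on milk formula, the latter -0.03 with quantile normalization. The gene that rose was SLC7A9, the transporting subunit of the exchanger for cystine and dibasic amino acids, best known from kidney and gut. Female pools stood at 0.239, 0.344 and 0.299 on sow milk, 0.542, 0.4 and 0.521 on milk formula and 0.744, 0.971 and 1.44 on soy formula. Male pools were at 0.278, 0.318 and 0.366 on sow milk, 0.573, 0.468 and 0.315 on milk formula and 0.649, 0.218 and 0.402 on soy formula. In females the 3 diets did not overlap, with sow milk lowest and soy formula highest, whereas in males the soy pools spread across both other diets. Over both sexes the rise on soy formula was 2.05-fold (log2 1.04, SE 0.23, adjusted p = 0.0139, 5 of 6 pools higher), and with quantile normalization it missed the threshold (adjusted p = 0.0851). The milk formula value was 0.60 (SE 0.23, adjusted p = 0.347).

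SLC3A1 encodes the heavy subunit that brings SLC7A9 to the plasma membrane. Its ratio in male pools was 0.53, 0.694 and 0.534 on sow milk, 0.408, 0.371 and 0.342 on milk formula and 0.278, 0.428 and 0.41 on soy formula. In female pools it was 0.734, 0.718 and 0.703 on sow milk, 0.757, 0.553 and 0.614 on milk formula and 0.542, 0.684 and 0.732 on soy formula. Male formula pools lay below the male sow-fed pools, and female groups overlapped for milk and for soy formula. The difference was -0.41 on soy formula (SE 0.13, adjusted p = 0.108) and -0.41 on milk formula (SE 0.13, adjusted p = 0.216), neither past the threshold. The second probe set of SLC3A1, with a mean log2 ratio of -2.36 against -0.90 in the one used, gave -0.02 on soy and -0.01 on milk formula.

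Carriers of glutamine and other neutral amino acids showed small differences. SLC1A5, a glutamine exchanger, stood at -0.05 on soy formula (SE 0.14, adjusted p = 0.927) and its relative SLC1A4 at -0.09 (SE 0.15, adjusted p = 0.873). SLC3A2, the heavy subunit of several exchangers, was at 0.15 (SE 0.18, adjusted p = 0.791). SLC7A7, a light subunit that pairs with SLC3A2 to export dibasic amino acids, was at -0.21 (SE 0.13, adjusted p = 0.528). On milk formula these 4 lay between -0.05 and 0.18, with 0 called.

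Beyond carriers, 11 genes of the amino acid response, the transcription factor ATF4 and its targets, were measured of 17 listed. On soy formula 4 rose (ASNS, PSAT1, PSPH and SQSTM1) and 1 fell (CEBPB), and on milk formula 0 were called. The medians were 0.36 on soy and 0.35 on milk formula. Of 7 genes measured of 10 on a urea cycle list, 3 rose (ARG1, ARG2 and ASL) and 1 fell (OAT) on soy formula. On milk formula 0 rose and 2 fell (CPS1 and OAT).

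**Figure D3:**
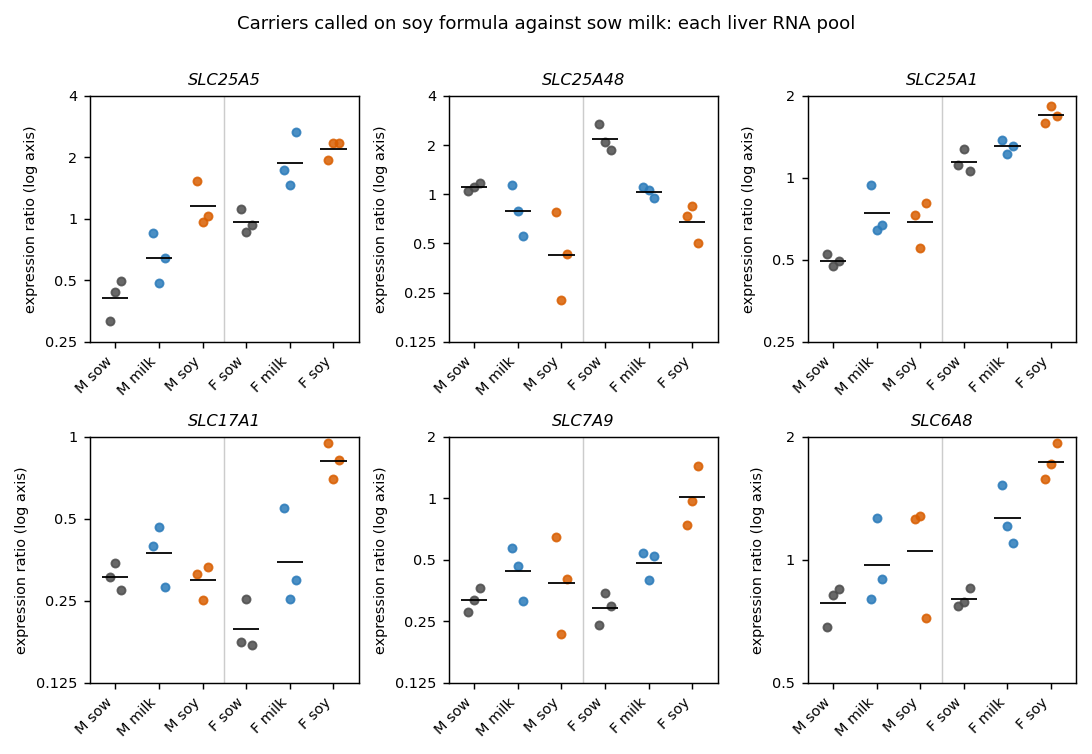
Expression ratio (log axis) of the 6 genes called on soy formula against sow milk in each of the 18 pools (points; M male, F female; grey sow milk, blue milk formula, orange soy formula); bars mark the mean of the log2 ratios in a group. SLC25A5 and SLC25A48 separate soy from sow-fed pools in both sexes, whereas SLC17A1 does so in females, with male soy pools from 0.252 to 0.333 against 0.275 to 0.343 on sow milk.

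SLC17A1 and SLC6A8 were the called genes outside these classes. SLC17A1 stood in female pools at 0.177, 0.254 and 0.172 on sow milk, 0.549, 0.254 and 0.297 on milk formula and 0.947, 0.703 and 0.821 on soy formula. In male pools it was at 0.307, 0.343 and 0.275 on sow milk, 0.397, 0.468 and 0.282 on milk formula and 0.314, 0.252 and 0.333 on soy formula. Female soy pools exceeded every other pool of the 18, and the male diets overlapped. Over both sexes it rose 2.00-fold on soy formula (log2 1.001, SE 0.18, adjusted p = 0.00297). Within females the difference was 2.05 (SE 0.26, adjusted p = 0.00194) and within males -0.05 (SE 0.24, adjusted p = 0.99). The female difference exceeded the male one by 2.09 (SE 0.36). The interaction of diet and sex had adjusted p = 0.0862, and over the alternatives adjusted p from 0.0367 to 0.584, with the lowest on leaving out pool 1 of the milk formula females. The call over both sexes was lost with array weights set by sex (adjusted p = 0.0517).

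SLC6A8 brings creatine into cells. Its female pools were at 0.771, 0.788 and 0.854 on sow milk, 1.52, 1.21 and 1.10 on milk formula and 1.58, 1.72 and 1.93 on soy formula, without overlap between diets. Its male pools were at 0.687, 0.822 and 0.851 on sow milk, 0.8, 1.27 and 0.898 on milk formula and 1.26, 1.28 and 0.72 on soy formula, where pool 3 on soy formula lay among the sow-fed pools. The rise on soy formula was 1.70-fold (log2 0.77, SE 0.15, adjusted p = 0.00682, 5 of 6 pools higher). On milk formula 6 of 6 pools were above the sow-fed mean of their sex, and the difference of 0.48 (SE 0.15) had adjusted p = 0.208, and adjusted p = 0.0476 in females alone.

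Of 15 carriers of glucose and other sugars, 0 were called on either formula over both sexes, and the class medians were -0.03 on soy and -0.11 on milk formula. SLC2A2 encodes GLUT2, the main glucose carrier of the hepatocyte membrane, and had the largest difference of the class on milk formula. Female pools stood at 1.37, 1.63 and 2.10 on sow milk, 1.36, 1.04 and 1.01 on milk formula and 1.48, 1.47 and 1.18 on soy formula. Male pools were at 0.637, 0.666 and 0.993 on sow milk, 0.662, 0.457 and 0.419 on milk formula and 0.593, 0.383 and 0.675 on soy formula. Milk formula and sow-fed pools overlapped in males and lay just apart in females. The difference was -0.58 on milk formula (SE 0.17, 95% interval -0.93 to -0.22, adjusted p = 0.171) and -0.39 on soy formula (SE 0.17, adjusted p = 0.294).

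SLC37A4 moves glucose 6-phosphate into the endoplasmic reticulum, a step of glucose release. In females it was at 1.63, 1.43 and 1.71 on sow milk, 1.14, 1.23 and 1.24 on milk formula and 1.17, 1.24 and 1.10 on soy formula, with sow-fed pools above all formula pools. In males it was at 0.901, 0.52 and 0.826 on sow milk, 0.9, 0.562 and 0.438 on milk formula and 0.85, 0.836 and 0.697 on soy formula, with overlap among all diets. Over both sexes the differences were -0.33 on milk formula (adjusted p = 0.524) and -0.16 on soy formula (adjusted p = 0.739), each with SE 0.16. Its second probe set gave -0.40 and 0.01.

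SLC2A1, the glucose carrier of most other cells, stood at 0.22 (SE 0.20, adjusted p = 0.704) on soy formula. SLC2A8, an intracellular sugar carrier, stood at 0.44 (SE 0.26, adjusted p = 0.6) for soy against milk formula, and at 0.12 without pool 3 of the milk formula males. Of 11 genes of glucose handling measured of 20 listed, 0 were called on milk formula and HK1 and PCK1 fell on soy formula.

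Among 13 metal carriers, 0 were called in any diet comparison over both sexes, and the medians were -0.08 on soy and -0.05 on milk formula. SLC39A14 encodes ZIP14, which brings zinc, manganese and non-transferrin iron into hepatocytes. Male pools were at 0.762, 0.55 and 0.958 on sow milk, 1.39, 1.41 and 1.10 on milk formula and 0.553, 0.977 and 0.905 on soy formula. Female pools were at 0.891, 1.06 and 1.02 on sow milk, 1.1, 1.28 and 1.47 on milk formula and 1.11, 0.89 and 0.922 on soy formula. Milk formula pools lay above the sow-fed pools in both sexes, and soy pools overlapped the sow-fed pools. The difference on milk formula was 0.59 (SE 0.16, 95% interval 0.26 to 0.92, adjusted p = 0.113), and it passed the threshold when pool 1 of the soy formula males was left out (adjusted p = 0.049). Soy against milk formula gave -0.55 (SE 0.16, adjusted p = 0.125). The second probe set of SLC39A14 gave 0.15 (SE 0.17) on milk formula and 0.02 for soy against milk formula.

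SLC25A37, mitoferrin 1, imports iron into mitochondria and is highly active in red cell precursors. Male pools were at 0.74, 0.521 and 0.424 on sow milk, 0.541, 1.07 and 0.989 on milk formula and 0.434, 0.464 and 0.83 on soy formula, and female pools at 0.664, 0.661 and 0.545 on sow milk, 0.755, 0.866 and 1.17 on milk formula and 0.731, 0.671 and 0.675 on soy formula. Milk formula pools were the highest in females, and all groups overlapped in males. The milk formula difference was 0.58 (SE 0.20, adjusted p = 0.252), and the second probe set gave -0.11. Beside it, 5 erythroid markers were measured of 16 listed, with 0 called on either formula and 0 at 0. Their summed ratio in females was 1.57 to 2.62 on sow milk, 3.10 to 13.1 on milk formula and 2.54 to 8.12 on soy formula, and in males it was 2.06 to 2.41, 2.65 to 2.79 and 2.42 to 3.37. Pool 3 of the milk formula females had the highest SLC25A37 ratio in its sex and the highest erythroid sum. Pool 3 of the soy formula females had the next highest sum, 8.12, with SLC25A37 at 0.675. That was below pool 1 of the same group, at 0.731 with a sum of 3.95. The milk formula differences of the markers ran from -0.27 for HBB to 1.74 for AHSP. The part of red cell precursors in the SLC25A37 values was not tested.

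SLC11A2, the divalent metal carrier that releases iron from endosomes, stood at -0.31 on milk formula (SE 0.22, adjusted p = 0.733) and -0.18 on soy formula (adjusted p = 0.792). The copper carriers SLC31A1 and SLC31A2 were at -0.19 (SE 0.23, adjusted p = 0.792) and -0.40 (SE 0.14, adjusted p = 0.133) on soy formula. SLC31A2 passed without pool 2 of the sow-fed males (adjusted p = 0.0428), and its second probe set gave -0.09 over all pools. SLC39A4, a zinc importer best known from the gut, was at -0.09 (SE 0.10, adjusted p = 0.758).

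SLC11A1, an iron and manganese carrier of the macrophage phagosome, was at -0.08 (SE 0.15, adjusted p = 0.883) on soy formula. Beside this, 5 of 8 measured macrophage markers (AIF1, C1QA, C1QC, CD5L and VSIG4, of 13 listed) fell on soy formula, with a list median of -0.69 and 0 at 0. The summed ratio of the 8 was 11.5 to 13.2 on sow milk and 6.54 to 8.46 on soy formula in females, and 5.74 to 7.73 and 4.33 to 5.16 in males. Of 7 endothelial markers measured, of 10 listed, 3 fell on soy formula (CDH5, ENG and TEK), with 0 at 0, and their sum was 8.11 to 9.32 on sow milk and 5.24 to 6.15 on soy formula in females and 4.22 to 5.30 and 2.79 to 3.64 in males. Their part in the values of the solute carriers on soy formula was not tested.

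Other genes of metal handling did pass the threshold. Of 13 iron and heme genes measured of 25 listed, 2 rose (HAMP and ID1) and 1 fell (TFRC) on milk formula, and 2 rose and 3 fell on soy formula. Of 10 zinc and copper genes measured of 15 listed, MT1A, a metallothionein, rose on milk formula, and A2M, MT1A and MT3 fell on soy formula.

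The 3 nucleoside carriers gave 0 calls over both sexes. SLC29A1 encodes ENT1, which lets nucleosides equilibrate across the plasma membrane. Female pools stood at 2.29, 2.46 and 1.51 on sow milk, 1.73, 1.40 and 1.45 on milk formula and 1.06, 1.16 and 1.12 on soy formula. Male pools were at 0.94, 0.658 and 0.599 on sow milk, 0.607, 0.904 and 0.453 on milk formula and 0.833, 0.481 and 0.664 on soy formula. Female soy pools lay below all other female pools, and male groups overlapped. The soy formula difference was -0.52 (SE 0.18, adjusted p = 0.149) over both sexes. The sodium-coupled carriers SLC28A1 and SLC28A3 stood at -0.004 (SE 0.12) and 0.17 (SE 0.16).

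**Figure D4:**
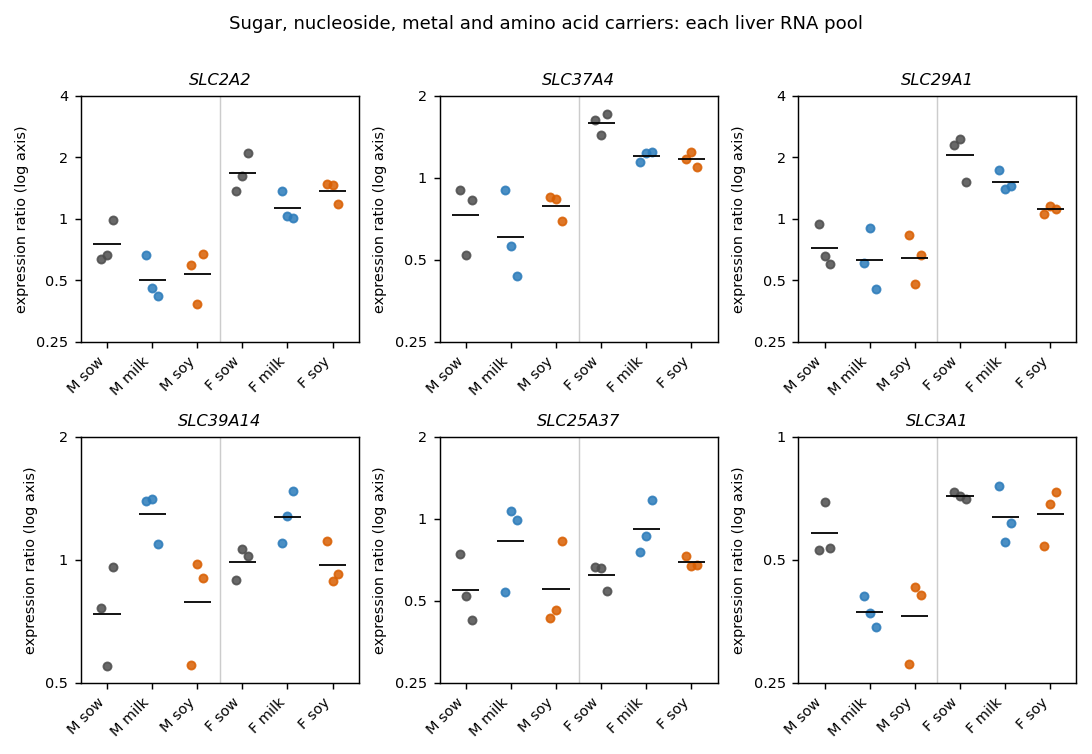
Expression ratio (log axis) of SLC2A2, SLC37A4, SLC29A1, SLC39A14, SLC25A37 and SLC3A1 in each of the 18 pools (points; M male, F female; grey sow milk, blue milk formula, orange soy formula); bars mark the mean of the log2 ratios in a group. None was called over both sexes, and the milk formula pools of SLC39A14 lie above the sow-fed pools in both sexes.

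Among the remaining classes, 0 genes were called on milk formula, and the called genes on soy formula were SLC17A1 of 14 inorganic ion carriers and SLC6A8 of 2 carriers of amines, creatine and osmolytes. SLC16A13, a member of the monocarboxylate family, came next to the threshold at 0.75 on soy formula (SE 0.20, adjusted p = 0.0506). It passed in 8 of 31 alternatives, among them median centring, trended and robust variances, the probe sets with higher ratios alone and 1 probe set per named gene. The 8 include the fits without pool 1 of the sow-fed males, pool 3 of the milk formula males or pool 2 of the soy formula males. SLC15A2, a peptide carrier, stood at -0.50 (SE 0.15, adjusted p = 0.0835). The 8 carriers of organic anions, cations and bile acids ran from -0.34 for SLCO2B1 to 0.20 for SLC22A5, the carnitine carrier. The 12 carriers of lipids, choline and vitamins ran from -0.33 to 0.25, and the 10 genes of the SLC35 class from -0.13 to 0.31. Of 12 ABC transporters measured of 28 listed, which pump substrates with the energy of ATP, 3 rose on soy formula (ABCB1, ABCB11, the bile salt export pump, and ABCD3) and 0 were called on milk formula. ABCG2 was higher on soy than on milk formula.

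The direct comparison of the formulas gave 0 calls over both sexes, and the values carried wide intervals. For the 6 genes called on soy formula, soy minus milk formula was 0.53 for SLC25A5 (95% interval 0.16 to 0.90) and -0.76 for SLC25A48 (-1.25 to -0.27). It was 0.46 for SLC17A1 (0.08 to 0.83), 0.44 for SLC7A9 (-0.04 to 0.91), 0.29 for SLC6A8 (-0.04 to 0.61) and 0.14 for SLC25A1 (-0.11 to 0.39). The intervals of the first 3 exclude 0 before adjustment and those of the last 3 include it. The smallest adjusted p belonged to SLC26A6, an exchanger of chloride, bicarbonate and oxalate, at 0.46 (SE 0.11, adjusted p = 0.0638). It passed in 4 of 31 alternatives, with 1 probe set per named gene, in females alone, and without pool 3 of the milk formula males or pool 2 of the soy formula males. SLC25A48 passed without pool 1 of the soy formula males (adjusted p = 0.0227).

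Female pools tested alone gave 17 genes on soy formula against sow milk, 10 higher and 7 lower, and male pools gave 1, SLC25A5. The 17 are 14.0% of the 121, where 6.66% of probe sets and 11.2% of named genes were called in females, and the 1 is 0.826%, where 0.284% of probe sets were called in males. The female share lay near that of named genes. Beside the 6 genes above, the higher ones were SLC16A13 (0.99), SLC26A6 (0.79), SLC25A12 (0.54), SLC25A17 (0.49) and SLC25A4 (0.46). SLC25A12 exchanges aspartate for glutamate across the inner mitochondrial membrane. The lower ones were SLC29A1 (-0.88), the regulator SLC2A4RG (-0.67) and 4 genes of the sugar class, SLC2A3 (-0.66), SLC50A1 (-0.49), SLC37A4 (-0.44) and SLC5A10 (-0.44). Their adjusted p ran from 0.00226 for SLC26A6 to 0.0497 for SLC2A3.

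In females, milk formula against sow milk gave 2 genes, SLC6A8 (0.66) and SLC25A48 (-1.07), which is 1.65% of the 121, where 0.74% of probe sets were called. Soy against milk formula gave 5, all higher: SLC17A1 (1.24), SLC7A9 (1.07), SLC26A6 (0.72), SLC35A3 (0.63) and SLC25A12 (0.56). These are 4.13% of the 121, where 2.25% of probe sets were called. The share of named genes called in females was not counted for either comparison. In males both comparisons gave 0 genes, where 0.0961% and 0% of probe sets were called, and 4 and 6 of the 121 had an unadjusted limma p below 0.05. A call in females and none in males does not show that the sexes differ. The interaction of diet and sex was called in 0 of the 121 genes, where 0.00836% of probe sets (2 of 23935) passed, and 7 of the 121 had an unadjusted limma p below 0.05. SLC17A1 had the smallest of these.

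**Figure D5:**
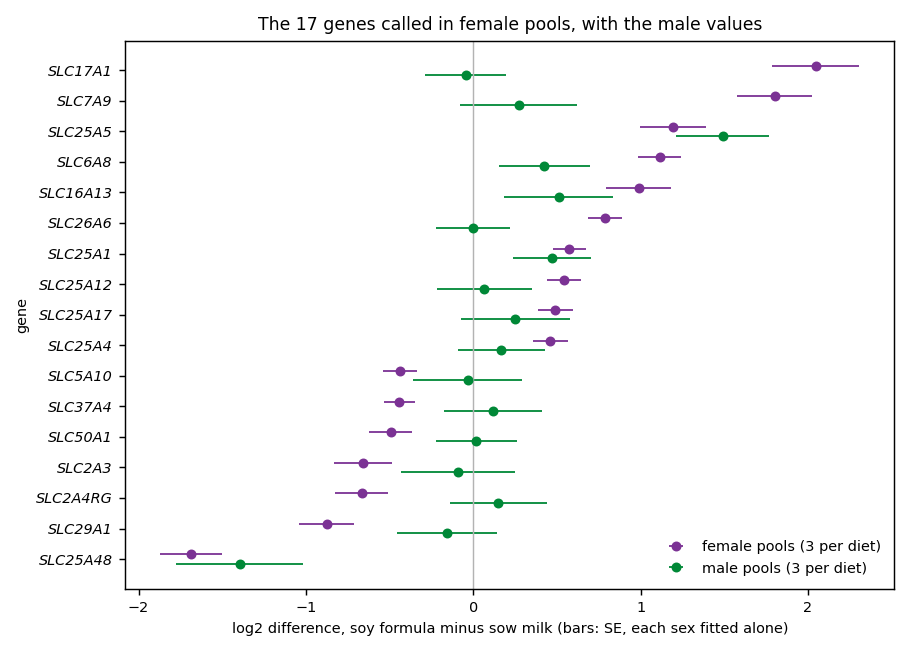
Log2 difference of soy formula minus sow milk for the 17 genes called in female pools (purple), with the male values (green), each sex fitted alone with 3 pools per diet; bars are standard errors. SLC25A5 and SLC25A48 have male values near the female ones (1.49 and -1.40 against 1.19 and -1.69), SLC17A1 has a male value near 0, and the male bars are wider for most genes.

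Male and female arrays differed in most solute carriers, though sex goes with array features that cannot be told apart from it. Among these features is the spread of the ratios, with both quartiles closer to the median on male arrays. Of the 121 genes, 73 were called, 24 higher and 49 lower in males. That is 60.3%, with 19.8% higher and 40.5% lower. The share of all probe sets past the threshold was 62.6%, made up of 25.8% that were higher and 36.8% that were lower in males, and the share of named genes was 71.2%, with 16.5% higher and 54.7% lower. The share of carriers lower in males thus lay below that of named genes and above that of all probe sets. With quantile normalization, which gives all arrays the same spread, 55 were called, 32 higher and 23 lower, so the balance of direction depends on the scaling. The largest differences were in SLC35F5, an SLC35 member of little known substrate, at -2.07 (SE 0.13, adjusted p = 5.08e-10), and SLC35A3, the Golgi carrier of UDP-N-acetylglucosamine, at -2.02 (SE 0.11, adjusted p = 8.12e-11). SLC35A3 ran from 0.146 to 0.268 in males and from 0.65 to 1.20 in females. SLC39A7, which releases zinc from the endoplasmic reticulum, SLC25A33 and SLC33A1, an acetyl-CoA carrier, followed at -1.48, -1.40 and -1.39.

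The genes with the largest male excess were SLC6A14, a neutral and basic amino acid carrier (0.95, SE 0.12, adjusted p = 1.74e-06), SLC25A3 (0.83), SLC22A6, an organic anion carrier (0.76), SLC1A1, a glutamate carrier (0.65), and SLC34A2, a phosphate carrier (0.64). The second probe set of SLC25A3 went the other way, at -1.19. So did a further probe set of SLC1A1, at -0.79 (adjusted p = 2.16e-06), while its others ran from 0.07 to 0.30. The second probe set of SLC25A33 was higher in males, at 0.30 (adjusted p = 0.0191), against the fall in the one used. Its mean log2 ratio was -2.28, against -0.29 in the one used. By class, 13 of 20 mitochondrial carriers and 8 of 10 SLC35 genes were lower in males, where 54.7% of named genes were, with medians of -0.45 and -0.66 against -0.41 for all named genes. With quantile normalization 10 of the mitochondrial carriers and 2 of the SLC35 genes were lower and 2 of each class higher, with medians of -0.205 and -0.07, and all named genes had a median of -0.002. The 10 genes named here for sex kept their direction and their call with both scalings, with smaller differences for the 5 that were lower in males. Among the 5 higher in males, SLC6A14 (0.151 to 0.18) and SLC34A2 (0.17 to 0.267) had female ratios below every array's median. The female ratios of the others lay above it. Sexes did not overlap in 21 genes, 18 lower and 3 higher in males, which is 17.4% of the 121, where 20.5% of all probe sets did not overlap. Beside the spiked control transcripts, the log2 ratio of 3′ to 5′ GAPDH probe sets ran from -0.76 to -0.48 on male arrays and from -0.06 to 0.32 on female arrays.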

How the data were processed

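Liver RNA from piglets was measured on Affymetrix porcine arrays, 18 in all, from 8 ug of RNA each per the labels. The authors deposited an expression ratio (a linear fold relative to a value shared by all arrays, which the sources used here do not name) per probe set, and the submitters' processing notes name GCOS and RMA without versions. Of the 121 solute carrier genes, 36 have a median ratio of 1 within 0.002. The ratio holds no absolute level, and signal over background is not known, so the number of arrays limits the precision. A genome build is not given in the sources used here, so no positions are printed.

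From the files, 188 control probe sets were set aside and log2 was taken of the other 23935 with a pseudocount of 0. Of these, 10069 name 1 gene, 198 name several and 13668 name none, and 5 solute carrier probe sets with several symbols were left out. All 121 symbols matched the gene reference, 119 of them also by gene ID. A model with a mean per group was fitted to all 18 arrays in limma 3.58.1 (R 4.3.3, prior degrees of freedom 6.18), after the scripts were tested on simulated data. Diet contrasts average the female and the male difference, the interaction is an F test of both its terms, and calls within a sex come from a fit to its 9 arrays. Tables and figures used Python 3.11.15, pandas 2.3.3 and matplotlib 3.10.9.

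The sources used here do not say whether pool numbers pair the samples, and the main fit held no pairing. Residuals of arrays with the same number had a median correlation of -0.009 (-0.125 to 0.177). With 3 pools per group, this cannot settle whether they are paired. No 2 arrays held identical values, and the highest correlation was 0.9827. The members, classes and lists were chosen with earlier results of these data known. Genes named are the called members (up to 20 per diet contrast), the largest difference per contrast in the 5 main classes, 17 measured genes of a list of 26 chosen for their known roles, called interactions (up to 5), and the 5 largest sex differences each way. The further genes called in females alone, the genes next to the threshold or at the ends of a class range, SLC3A1, SLC25A4, SLC25A6 and SLC28A1 were named after their values were seen. Alternatives were quantile normalization, median centring, trended and robust variances, array weights (also by sex) and a pseudocount of 0.1. Others were leaving out the 40% of probe sets with the lowest ratios, 1 probe set per named gene and the mean of a gene's probe sets. The rest were only the groups compared, the arrays of a single sex, the pool number as a block, and each array left out. Since the value behind the ratio is not named, whether leaving out low ratios selects by signal is not known. Promoter and other sequences were not analysed here.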

Additional observations from a re-analysis of the deposited data

How the results depend on the processing

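Of 2136 values of single genes under an alternative, 2098 kept their direction where called and their side of the threshold, 27 lost and 10 gained a call, 1 reversed, and 61 values not called changed sign. The reversed value was SLC17A1 on soy formula against sow milk, -0.045 in males alone. The cause was not tested for any of these. On milk formula against sow milk the 1 call became 0 with array weights, with array weights by sex, with the replicate block of the pool number and in male arrays alone, 2 in female arrays alone, and 0 to 2 with each pool left out. On soy formula against sow milk the 6 calls became 17 in female and 1 in male arrays, and 5 to 10 with each pool left out. They stood at 10 without pool 2 of the sow-fed males and at 9 without pool 2 of the soy formula males. Settings other than a single sex or a pool left out gave 5 to 8. The rise of SLC25A5 on soy formula kept its call under all 31 alternatives. For soy against milk formula the 0 calls became 1 with 1 probe set per named gene (SLC26A6), 5 in female arrays, and 0 to 1 with each pool left out. The interaction went from 0 to 0 to 1 calls with each pool left out. The 73 calls for sex ran from 66 to 77 with each pool left out and from 55 to 74 under the other settings. With the replicate block, 6 genes were called on soy formula and 69 for sex. Scaling moved the median of all probe sets by under 0.1 in every comparison, but quantile normalization moved that of the named genes for male against female from -0.41 to -0.002.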
